A study of Danio rerio with 4 samples.

Results

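Most H3K27ac sites of the regenerating zebrafish heart lay close to another site. A small set stood alone, and those of its sites that were called in all 4 libraries are described here. Peaks of all 4 deposited lists were merged where they overlapped by at least 1 bp, which gave 51678 sites, of which 44043 lay on chromosomes 1 to 25 with chromosome 4 taken only up to 30 Mb. Of these, 15296 were called in all 4 lists and are termed shared. Isolated shared sites were selected on the peak calls themselves: a shared site qualified when the nearest site of any list lay more than 50 kb away on both sides. This rule gave 318 isolated sites, 2.08% of the 15296 shared sites, and the remaining 14978 are termed other shared sites. Since the calls chose the sites, their gaps and their presence in every list are properties of the choice and were not tested.

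The libraries came from noncardiomyocytes (nonCMs) freshly isolated from the injury area of adult hearts at 7 days post apex resection (dpa), with 2 *Epi/FB:dnAP-1* and 2 control libraries, which the study calls biological duplicates. In the methods, *Epi/FB:dnAP-1* fish (FB:dnAP-1 in the labels) carry a *tcf21:Cre-ERT2* BAC transgene with a *ubb:loxp-dsRed-loxp-Flag-dnAP-1* transgene and were injected with 4-hydroxytamoxifen before the resection, so that a dominant negative AP-1 is switched on where *tcf21* drives the Cre, in epicardial cells and fibroblasts (Epi/FBs). Controls are there fish with both transgenes given ethanol vehicle, whereas the control labels say no more than CTRL or WT. The input was all nonCMs and not sorted Epi/FBs, so that a change within Epi/FBs and a change in the number of Epi/FBs cannot be told apart. How many hearts went into a library was not given in the sources used here, and p-values measure only the spread between these libraries.

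CUT&Tag brings a transposase to chromatin through an antibody, and the DNA around the bound histone is cut, tagged and sequenced. H3K27ac is an acetyl mark on the tail of a histone that is found at active promoters and enhancers. AP-1 is a dimer of Jun and Fos family proteins that binds many enhancers after injury, and its dominant negative form blocks its activity. Enhancers often sit in groups around a gene, and others act alone over long distances. Whether a site is a promoter or an enhancer, and which gene it belongs to, could not be read here, because no gene annotation or sequence of the build of the lists (GRCz11) was used. Sites are therefore given by position, counted from 1, and the labelled cell type could not be checked against marker genes.

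The 4 lists held 32638 to 38429 peaks each and covered 102 to 118 Mb. Each peak carries its total signal (coverage summed over its bases, after the scaling by the authors) and its maximum signal. The lists give no read totals, so sequencing depth is unknown and no counting interval was computed. Every maximum is a whole multiple of a step, which was 0.68 in both *Epi/FB:dnAP-1* lists, 1.26 in control replicate 1 and 1.38 in control replicate 2. What 1 step stands for is not stated. Below, the level of a site is its log2 maximum minus the median of that list over the 17511 sites called in all 4 lists anywhere in the genome (centred log2 maximum), and the group difference is the mean of the *Epi/FB:dnAP-1* libraries minus that of the controls.

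The long stretches without a called peak around isolated sites made up a minor share of all such stretches. The lists hold called peaks only, so signal too weak to be called within a gap cannot be seen. Between neighbouring sites there were 44018 gaps with a median of 8441 bp. Of these, 5874 were longer than 50 kb, and they held 692 of the 1113 Mb of gap length, or 62.2%. An isolated shared site bordered 610 of the 5874 long gaps (10.4%), which together spanned 80.8 Mb, while the sites themselves added up to 1.24 Mb. The shorter of the 2 gaps of an isolated site had a median of 70212 bp and ran from 50077 to 280885 bp. The longer gap had a median of 140292 bp and reached 698 kb. At 75 sites both gaps were over 100 kb, and at 12 both were over 200 kb.

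Isolation was less common the more lists called a site. Of sites called in 1 list, 892 of 15393 were isolated (5.79%). The share was 266 of 7572 (3.51%) for sites called in 2 lists and 168 of 5782 (2.91%) for sites called in 3 lists, above the 2.08% of shared sites. The nearest sites on the 2 sides of the isolated sites were also called in fewer lists. Of these 636 neighbours, 258 (40.6%) were called in 1 list and 189 (29.7%) in all 4, against 31.8% and 37.9% of the neighbours of other shared sites. In 26 gaps both borders were isolated sites.

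Isolated sites were found on all 25 chromosomes, with large differences in number. Chromosome 5 held the most, 23 of its 829 shared sites. Chromosome 23 had the highest share, 17 of 551 (3.09%), and the highest density, 3.68 per 10 Mb, followed in share by chromosome 22 with 13 of 443 (2.93%). At the other end, chromosome 4 up to 30 Mb held 1 isolated site among 385 shared sites (0.260%), and chromosome 15 held 5 among 589 (0.849%). Chromosomes 19 and 16 were also low, with 8 of 662 (1.21%) and 9 of 728 (1.24%). The single site of chromosome 4, chr4:14359977-14374728, was also the widest isolated site with 14752 bp.

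**Figure D1:**
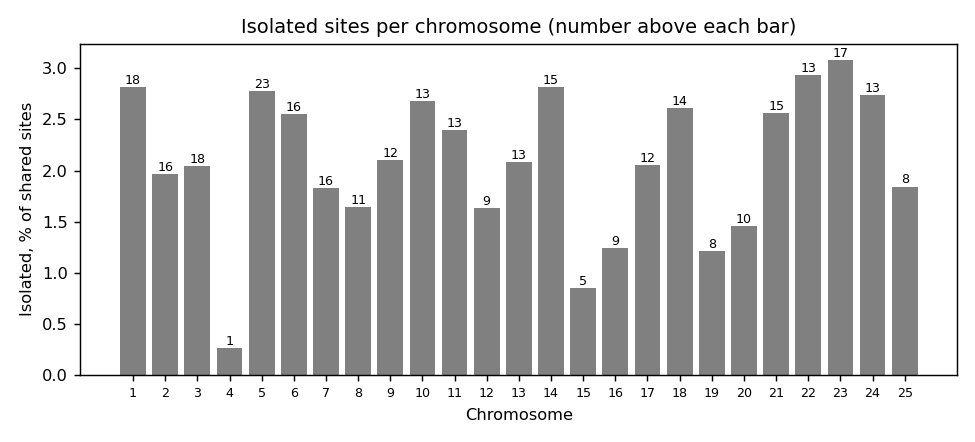
Isolated shared sites on chromosomes 1 to 25, as a percentage of the shared sites of each chromosome (bars) with their number above each bar; chromosome 4 is counted only up to 30 Mb. Chromosome 23 is highest with 3.09%, and chromosomes 4 and 15 are lowest with 1 and 5 sites.

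Along the chromosomes, isolated sites lay less often near the ends. Positions were taken relative to the end of the last called site of each chromosome. For chromosome 4 that end lay beyond 30 Mb, although only its sites up to 30 Mb were counted. Its counted sites could therefore fall in the outer 10% only at the start. In the outer 10% of this span at either end lay 56 of 318 isolated sites (17.6%) and 3662 of 14978 other shared sites (24.4%). The median position was at 43.3% of the span for isolated sites and 49.5% for the others.

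Isolated sites were narrower than other shared sites in every library. The merged sites had a median width of 3386 bp, with quartiles of 2483 and 4724.5 bp, against 4463.5 bp with quartiles of 3092 and 6777.5 bp. Merging takes the outer edges of the overlapping peaks of the 4 lists, which widens sites with and without close neighbours. The peaks of a list covered a median of 74.2% of an isolated site and 73.0% of another shared site. Widths of single peaks were therefore compared too, taking the widest where a list had several peaks at a site. A list had 1 peak at 94.0% to 97.2% of isolated sites and at 83.2% to 90.7% of the others. Taking the widest peak thus raises the widths of the others more often. In *Epi/FB:dnAP-1* replicates 1 and 2 the median peak width was 2056.5 and 2449 bp at isolated sites and 2584.5 and 3191.5 bp at the others. In control replicates 1 and 2 it was 2506.5 and 2223 bp at isolated sites and 3049 and 2713 bp at the others. The difference within a library ran from −742.5 to −490 bp (SD 113, n = 4 libraries), and was below 0 in all 4 libraries.

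Very wide sites were rare among isolated sites. Only 3 of 318 (0.943%) were wider than 10000 bp, compared with 1519 of 14978 other shared sites (10.1%). Besides the site on chromosome 4, these were chr11:19297393-19309953 (12561 bp) and chr10:25199078-25209234 (10157 bp). Another 3 isolated sites were narrower than 1000 bp, at chr24:38292412-38292855 (444 bp), chr21:44157989-44158547 (559 bp) and chr17:48009875-48010763 (889 bp). Among the other shared sites 6 were that narrow. All 3 narrow isolated sites were among those called lower in *Epi/FB:dnAP-1* in the test described further on. The widest and narrowest sites were singled out after their values were seen.

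The isolated sites were also simpler in structure. At 290 of 318 (91.2%) every list had exactly 1 peak, against 76.0% of other shared sites, a share that merging of dense peaks lowers. The 4 maxima lay within 1000 bp of each other at 284 isolated sites (89.3%) and at 82.2% of the others. Within 200 bp the shares were close, 55.3% and 54.4%. The median distance between the outermost maxima of the 4 lists was 178 bp at isolated and 180.5 bp at other shared sites. Peak starts and ends varied less, with median spreads over the 4 lists of 635.5 and 680 bp against 900 and 896 bp. At its median, the spread of the maxima was thus alike with and without close neighbours.

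Total signal ranked lower at isolated sites. The rank of a site was taken as the percentile of its strongest peak within each list. In *Epi/FB:dnAP-1* replicates 1 and 2 the median percentile was 69.5 and 64.7 at isolated sites and 76.2 and 73.2 at the others. In control replicates 1 and 2 it was 59.5 and 64.6, against 70.8 and 70.4. The difference was −6.70, −8.53, −11.3 and −5.75 percentile points in the 4 libraries (SD 2.46), in the same order. Isolated sites reached the top 10% of a list in 36, 26, 31 and 38 cases, 8.18% to 11.9% of the 318, while 18.7% to 22.5% of other shared sites did so.

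Maximum signal differed less, and the mean signal per base went the other way. At isolated sites the median maximum was 35.0 and 34.7 in *Epi/FB:dnAP-1* hearts versus 30.2 and 26.2 in controls, and at other shared sites it was 39.4, 38.8, 32.8 and 27.6. Averaged over libraries, the centred log2 maximum had a median of −0.13 at isolated sites and 0.03 at the others. Isolated sites thus had the lower maximum in each of the 4 libraries. The mean signal per base of a peak was 8.91, 9.0, 9.14 and 8.77 at isolated sites, above the 8.54, 8.41, 8.76 and 8.17 of the others. The ratio of maximum to mean signal per base, a measure of how sharply a peak rises, had a median of 3.28 at isolated sites and 3.80 at other shared sites. Flat sites with a ratio up to 3 made up 116 of 318 isolated sites (36.5%) and 21.0% of the others. Sharp sites with a ratio over 5 made up 33 (10.4%) and 20.9%.

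Across all shared sites, median width and rank went down with the distance to the nearest site. The 6719 sites with a neighbour within 2 kb had a median width of 4880 bp and a median percentile of 71.7. At 25 to 50 kb, just short of the limit, the 729 sites had 3606 bp and 65.7. The 243 isolated sites with a shorter gap of 50 to 100 kb had 3307 bp and 62.5, and the 75 beyond 100 kb had 3681 bp and 61.5. Width was thus not lowest in the most isolated class, whereas the percentile was.

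**Figure D2:**
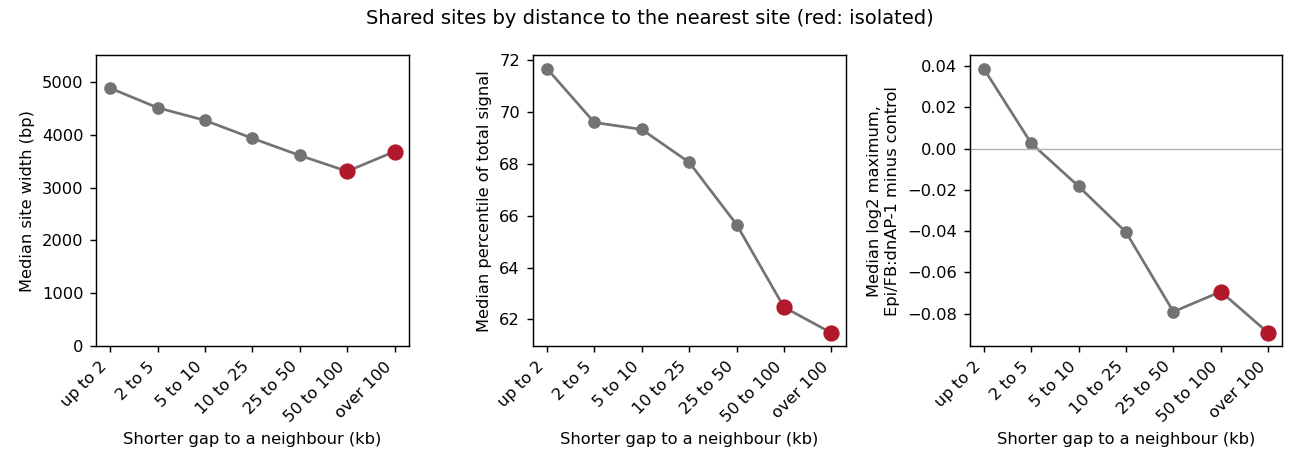
Median site width (bp, left), median percentile of total signal within a list (middle) and median group difference in centred log2 maximum (*Epi/FB:dnAP-1* minus control, right) for shared sites by the shorter gap to a neighbour in kb; red points are isolated sites, and the middle and right axes do not start at 0. Width falls from 4880 to 3307 bp and is 3681 bp in the last class, and the percentile falls from 71.7 to 61.5.

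The sites nearest to the 50 kb limit on either side are given for description. The 3 isolated sites nearest to it were chr5:37031498-37034804 and chr5:37084882-37092174, which are 50077 bp apart and each other's neighbour, and chr25:12411878-12415812. Their widths were 3307, 7293 and 3935 bp, their mean percentiles 57.8, 88.1 and 24.9, and their group differences −0.03, 0.31 and −0.40 on the log2 scale. The 3 shared sites just short of the limit were chr2:5560043-5562077, chr5:6743181-6746156 and chr22:14834976-14837544, with shorter gaps of 49923, 49804 and 49766 bp. They had widths of 2035, 2976 and 2569 bp, mean percentiles of 64.5, 41.4 and 66.4, and group differences of 0.11, −0.70 and −0.04. The 3 sites inside the limit were thus the wider ones, and the percentiles and group differences of the 2 sets overlapped.

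Whether an isolated site is found again in a library that did not choose it was asked by applying the rule to 3 lists and looking in the fourth. With *Epi/FB:dnAP-1* replicate 1 held out, 389 of 406 isolated sites (95.8%) had a peak in its list, against 96.7% of the other sites called in the 3 lists. With *Epi/FB:dnAP-1* replicate 2 held out, 349 of 392 (89.0%) did, against 94.5%. With control replicates 1 and 2 held out, 439 of 526 (83.5%) and 405 of 466 (86.9%) did, against 88.0% and 87.7%. The share was lower for isolated sites in all 4 cases, by 2.94 ± 2.43 percentage points on average (SD, n = 4). An exact two-sided permutation test by sign flips gave p = 0.13, and no smaller p can be reached with 4 libraries, which the 4 cases share. Where the held-out list did call the site, isolated sites again ranked lower, with median percentiles of 70.0, 65.3, 62.1 and 63.9 against 76.4, 73.9, 71.6 and 70.9.

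The 5 most remote isolated sites differed in strength. The site with the longest shorter gap was chr19:45137947-45141706, with 424 kb without a called peak on its left and 281 kb on its right. Its maxima were 13.6 and 12.2 in *Epi/FB:dnAP-1* hearts versus 21.4 and 16.6 in controls. A similar weak site was chr12:11915123-11918687, with gaps of 263 and 288 kb and maxima of 11.6 and 12.9 in *Epi/FB:dnAP-1* hearts versus 20.2 and 13.8 in controls. At both, *Epi/FB:dnAP-1* was lower (limma adjusted p = 0.01268 and 0.02932, in the fit described further on). In steps the order was the opposite, with 20 and 18 against 17 and 12 at the first site and 17 and 19 against 16 and 10 at the second. The other 3 of the 5 most remote sites lay on chromosome 6 and were stronger. At chr6:22679606-22686007 (gaps of 310 and 270 kb) the maxima were 38.8 and 38.1 in *Epi/FB:dnAP-1* hearts versus 52.9 and 40.02 in controls. At chr6:30111946-30115063 (318 and 257 kb) they were 42.8 and 48.3 in *Epi/FB:dnAP-1* hearts versus 35.3 and 27.6 in controls. At chr6:21227320-21230341 (270 and 250 kb) they were 51.7 and 46.9 in *Epi/FB:dnAP-1* hearts versus 34.0 and 29.0 in controls. The last 2 were thus higher in both *Epi/FB:dnAP-1* libraries on the deposited scale, but their group differences of 0.19 and 0.29 after centring did not pass the test (adjusted p = 0.6389 and 0.424), nor did the −0.62 of the first (adjusted p = 0.07776). Their maxima lay within 52 bp of each other across the 4 lists.

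The strongest isolated site stood far above the rest. It was chr11:17565019-17569473, 4455 bp wide, with gaps of 590 and 189 kb. The maximum was 285.6 and 213.5 in *Epi/FB:dnAP-1* hearts versus 433.4 and 385.0 in controls, its mean percentile was 99.8, and its 4 maxima lay within 1.5 bp. Next came the 444 bp site on chromosome 24, with 187.0 and 117.6 in *Epi/FB:dnAP-1* hearts versus 307.4 and 218.0 in controls. The site chr2:3911875-3914292 had 118.3 and 104.7 in *Epi/FB:dnAP-1* hearts versus 263.3 and 219.4 in controls. All 3 were lower in both *Epi/FB:dnAP-1* libraries. The 559 bp site on chromosome 21 had 125.1 and 104.0 against 197.8 and 151.8. The site chr11:3024381-3028805 had 79.6 and 74.8 against 173.9 and 131.1. In these 2 as well, both *Epi/FB:dnAP-1* libraries lay below both controls. The 444 and 559 bp sites were nearly flat, with a maximum over mean of 1.73 and 1.68, the latter the lowest of the 318.

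The weakest isolated sites were near the lowest maxima of other shared sites, which ran from 4.76 to 7.56 in the 4 libraries. At chr10:19349914-19355881 the maxima were 6.12 and 4.76 in *Epi/FB:dnAP-1* hearts versus 10.1 and 9.66 in controls, which is 9 and 7 against 8 and 7 steps. The 12561 bp site on chromosome 11 had 6.12 and 6.80 in *Epi/FB:dnAP-1* hearts versus 11.3 and 13.8 in controls, or 9 and 10 steps in each group. At chr13:20685092-20688642 the maxima were 6.12 and 8.16 against 10.1 and 13.8, or 9 and 12 against 8 and 10 steps. In steps, the groups overlapped at all 3 sites. The maxima of these weak sites lay 883 to 7216 bp apart across the 4 lists.

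**Figure D3:**
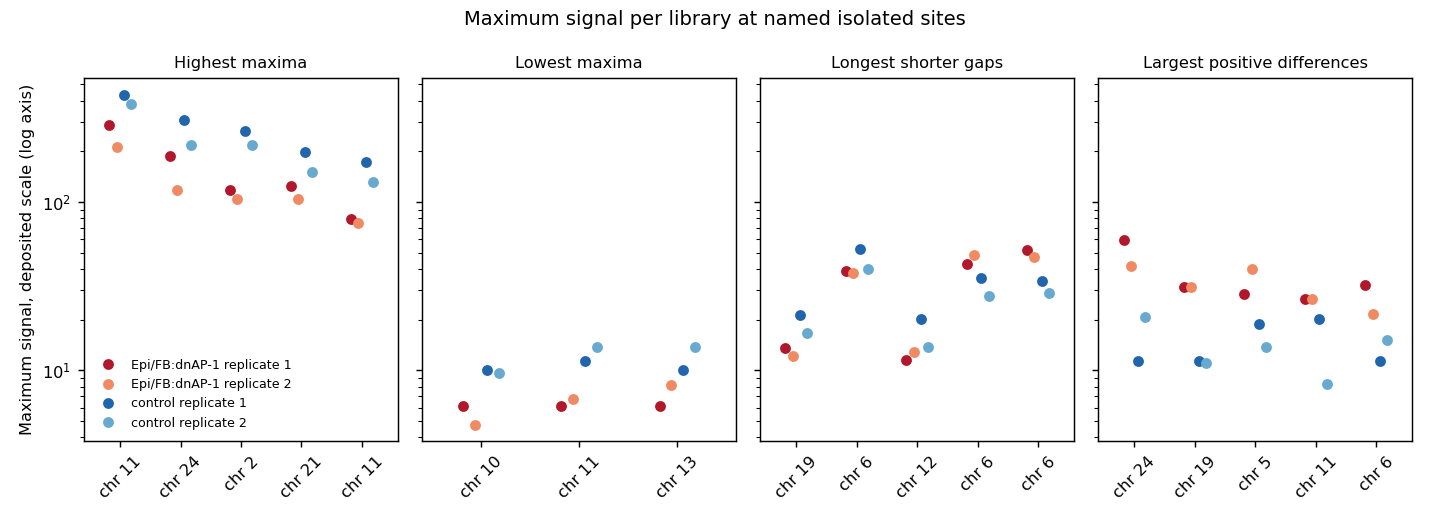
Maximum signal on the deposited scale (log axis) in each of the 4 libraries at the isolated sites named by level, by gap and by positive group difference, ordered by rank within each panel; each point is 1 library and each site is labelled with its chromosome. At the 5 strongest and the 3 weakest sites both control libraries lie above both *Epi/FB:dnAP-1* libraries.

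As a group, the isolated sites had a slightly lower level in both *Epi/FB:dnAP-1* libraries. Their median centred log2 maximum was −0.12 and −0.11 in *Epi/FB:dnAP-1* hearts versus −0.06 and −0.07 for control libraries. An exact two-sided permutation test gave p = 0.333, and with 2 libraries on each side no smaller p can be reached. The median group difference of the 318 sites was −0.07, with quartiles of −0.41 and 0.17, compared with 0.00 and quartiles of −0.29 and 0.24 at other shared sites. Its lower tail held a larger share of the sites, although the lowest value was −1.94 at isolated and −3.08 at other shared sites. A group difference below −1 was found at 32 isolated sites (10.1%) and at 4.37% of the others, and one above 0.5 at 9 (2.83%) and 7.44%. These values are relative to the median of all shared sites. On the deposited scale, without centring, the median difference was 0.29 at isolated and 0.36 at other shared sites, and in steps it was 1.24 and 1.32. The sign of the median therefore depends on the scaling of the libraries, which moves isolated and other shared sites alike.

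Counts of sites whose groups did not overlap leaned the same way. Both *Epi/FB:dnAP-1* libraries lay below both controls at 112 isolated sites (35.2%), beside 29.8% of all 17511 shared sites and 27.7% of the 14978 other shared sites. They lay above both controls at 63 (19.8%), beside 24.5% of all 17511 and 26.2% of the other shared sites. At shared sites with a shorter gap of 25 to 50 kb these shares were 34.7% below and 15.9% above. In the limma fit over the 17511 sites (Benjamini-Hochberg adjusted p under 0.05), 46 isolated sites were called (14.5%), beside 11.5% of all. Of the 46, 44 were lower in *Epi/FB:dnAP-1* (13.8%, beside 9.76% of all) and 2 were higher (0.629%, beside 1.73%). The other shared sites counted here had 1233 called lower (8.23%) and 274 called higher (1.83%). Without centring, on the deposited scale, the split of the isolated sites moved to 21 lower (6.60%) and 14 higher (4.40%). Of all 17511 sites, 670 were then called lower and 1785 higher. At an unadjusted p under 0.05, 68 isolated sites were lower (21.4%, beside 17.3% of all) and 10 were higher (3.14%, beside 7.79%). The number of calls depended on which libraries were in the fit and on the maximum as the measure. The median group difference of isolated sites was −0.07 without *Epi/FB:dnAP-1* replicate 1 and −0.11 without *Epi/FB:dnAP-1* replicate 2. The median was −0.10 without control replicate 1 and −0.09 without control replicate 2. No site, isolated or other, passed the limma test once an *Epi/FB:dnAP-1* library was left out. With total signal in place of the maximum, limma called 1 isolated site (0.314%, beside 0.799% of all). With 1 library left in a group, that library was assumed to vary like those of the other group.

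The 44 sites called lower were spread over 21 chromosomes, with at most 5 on one, chromosome 11. Their group difference had a median of −1.17 and ran from −1.94 to −0.70. In level they ran from −2.19 to 3.25, with a median of −0.83. They were flatter than the isolated sites as a whole, with a median maximum over mean of 2.67 and with 29 of 44 (65.9%) at a ratio up to 3. The median distance between their outermost maxima was 543.5 bp, against 165 bp at the 272 isolated sites that were not called. In total signal, 43 of the 44 were below 0, with a median group difference of −0.85, and in mean signal per base all 44 were, with a median of −0.79. Shape, total and mean signal come from the same peaks as the maxima that chose the 44 sites, so they are not separate evidence.

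In steps the values at these 44 sites read differently. Counting in steps divides all maxima of a list by the step of that list. It therefore shifts the log2 group difference of every site by the same amount, and it is not separate evidence on these sites. Counted so, their median maximum was 22 and 19.5 in *Epi/FB:dnAP-1* hearts versus 20.5 and 16 for controls. At 32 of the 44 the groups overlapped in steps, at 9 *Epi/FB:dnAP-1* was above and at 3 it was below. Of the 14978 other shared sites, *Epi/FB:dnAP-1* was above at 14038 and below at 116, and the groups overlapped at 824. At the 272 isolated sites that were not called, *Epi/FB:dnAP-1* was above at 270. The median maximum of these 272 was 53 and 54 against 25 and 20 steps. Sites called lower were thus those at which the *Epi/FB:dnAP-1* libraries lacked the higher number of steps that they had at most other sites. The number of steps can also differ with sequencing depth, whose part in these values was not tested.

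The largest negative group difference was at chr1:3644989-3648960. Its maximum was 15.0 and 12.2 in *Epi/FB:dnAP-1* hearts versus 44.1 and 37.3 in controls (log2 difference −1.94 ± 0.21 SE, limma adjusted p = 0.0001742). It was 1 of the 3 called sites that were lower in steps as well, with 22 and 18 against 35 and 27. At chr16:2271926-2274448 the maxima were 39.4 and 29.2 in *Epi/FB:dnAP-1* hearts versus 104.6 and 95.2 in controls, or 58 and 43 against 83 and 69 steps (−1.91 ± 0.22, adjusted p = 0.0001864). Both sites lay in the outer 10% of their chromosome, at 6.1% and 4.1% of the span. At chr5:7575973-7579345 the maxima were 8.84 and 9.52 against 18.9 and 27.6 (−1.67 ± 0.25, adjusted p = 0.0007517), and 13 and 14 against 15 and 20 steps. These were the 3 sites that were also lower in steps, and the last was the weakest of them. At chr10:24117822-24124386 they were 9.52 and 6.12 against 20.2 and 16.6 (−1.62 ± 0.24, adjusted p = 0.0006672). In steps the groups overlapped there, with 14 and 9 against 16 and 12. The fifth was the strong site on chromosome 2, at −1.47 ± 0.21 (adjusted p = 0.0005785), with 174 and 154 against 209 and 159 steps.

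The strongest isolated site, on chromosome 11, had a log2 difference of −1.08 ± 0.22 (limma adjusted p = 0.005383). In steps its groups overlapped, with 420 and 314 in *Epi/FB:dnAP-1* hearts versus 344 and 279 in controls.

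In the fit with all 4 libraries, 2 isolated sites were called higher in *Epi/FB:dnAP-1* (0.629%, beside 1.73% of all). This count depended on which libraries were in the fit. At chr24:40810941-40814705 the maxima were 59.2 and 41.5 in *Epi/FB:dnAP-1* hearts versus 11.3 and 20.7 in controls (1.34 ± 0.30 SE, limma adjusted p = 0.01002). At chr19:46865047-46868990 they were 31.3 in each *Epi/FB:dnAP-1* library, above the 11.3 and 11.04 of the controls (1.13 ± 0.21, adjusted p = 0.003001). In total signal their group differences were near 0, at −0.10 and 0.24, whereas in mean signal per base they ran from 0.68 to 0.77. Their maxima lay 1774 and 2263 bp apart across the lists, and both lay at 96.8% of the span of their chromosome. The next largest positive differences did not pass the test. At chr5:69714384-69717388 the maxima were 28.6 and 40.1 against 18.9 and 13.8 (0.71, adjusted p = 0.06628). At chr11:3205904-3213315 they were 26.5 in both *Epi/FB:dnAP-1* libraries against 20.2 and 8.28 (0.68, adjusted p = 0.1607). At chr6:56622718-56630041 they were 32.0 and 21.8 against 11.3 and 15.2 (0.65, adjusted p = 0.1271). All 5 of these sites lay in the outer 10% of a chromosome, which holds 17.6% of isolated sites and 22.7% of the isolated sites called lower. This was seen after the 5 sites were picked. Among other shared sites, 21.2% of those called higher lay there, beside 24.4% of all other shared sites.

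**Figure D4:**
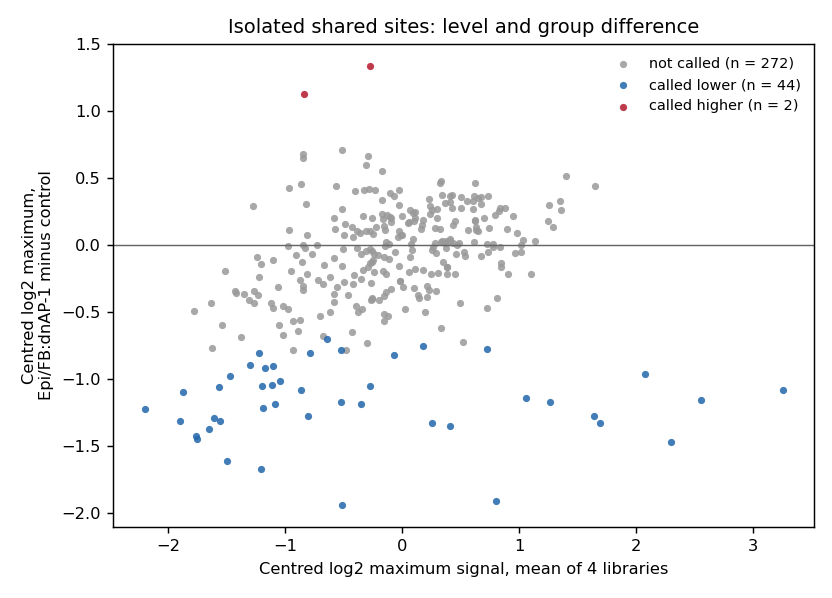
Group difference in centred log2 maximum (*Epi/FB:dnAP-1* minus control, y axis) against the mean centred log2 maximum of the 4 libraries (x axis) for the 318 isolated sites, 1 point per site, coloured by the limma call. The 44 sites called lower lie at both low and high levels, from −2.19 to 3.25, and the 2 called higher lie below a level of 0.

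Calls of lower signal were unevenly spread over level. At a level of −1 or below, 21 of 45 isolated sites were called lower (46.7%), against 34.8% of the other shared sites at that level. Between −1 and 0 it was 10 of 135 (7.41%), against 7.38%, and between 0 and 1 it was 5 of 118 (4.24%), against 1.76%. Above 1 it was 8 of 20 isolated sites (40%), against 6.12% of the 1454 other shared sites. The 8 strong sites include the 5 strongest named above. At a level of −1 or below, the median group difference was −0.69 at isolated and −0.58 at other shared sites. Between −1 and 0 the medians were −0.09 and −0.10, and between 0 and 1 they were 0.03 and 0.12. Above 1 they lay further apart, at −0.03 for the 20 isolated and 0.19 for the other shared sites. The lowest total signal of any called peak was unequal, at 7490 and 9203 for *Epi/FB:dnAP-1*, below 12993 and 10480 for controls. A shared site has peaks at or above all 4 of these floors. Their part in the calls and group differences of weak sites was not tested. By gap, 17 of 182 sites with a shorter gap up to 75 kb were called lower (9.34%), 7 of 61 from 75 to 100 kb (11.5%) and 20 of 75 beyond 100 kb (26.7%), beside 9.76% of all 17511 shared sites. The median group differences of these 3 gap classes were −0.05, −0.20 and −0.09, which do not follow the gap among isolated sites. Across all shared sites the median went from 0.04 with a neighbour within 2 kb to −0.02 at 5 to 10 kb. At 25 to 50 kb it was −0.08.

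Isolated and other shared sites of like shape had close median group differences. At a maximum over mean up to 3, the median group difference was −0.31 at isolated and −0.33 at other shared sites, and 25.0% and 22.0% were called lower. From 3 to 4 the medians were −0.07 and −0.05, with 12% and 7.48% called lower. From 4 to 5 the medians were 0.14 and 0.09, and over 5 they were 0.11 and 0.20. At most 3.03% of isolated sites were called lower in these sharper classes. From the flattest to the sharpest class the median level rose too, from −0.51 to 0.65 at isolated and from −0.79 to 0.67 at other shared sites. The maximum enters the ratio, the level and the group difference alike. Shape thus moved with both level and group difference in both sets of sites. The part of shape or level in the difference between the sets was not tested.

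**Figure D5:**
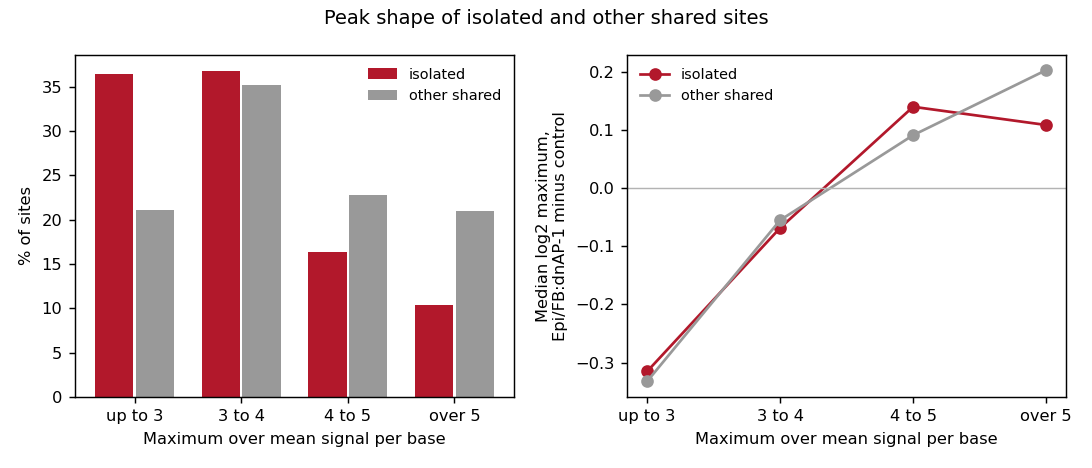
Share of isolated and other shared sites in 4 classes of maximum over mean signal per base (left, % of sites) and the median group difference in centred log2 maximum in each class (right, *Epi/FB:dnAP-1* minus control). Flat sites up to a ratio of 3 make up 36.5% of isolated and 21.0% of other shared sites, and the 2 lines run close to each other, with the widest separation over a ratio of 5 (0.11 and 0.20).

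Libraries of a group resembled each other at isolated sites about as they did elsewhere. Across the 318 sites, Pearson's r between libraries, taken over log2 maxima, was 0.94 for the *Epi/FB:dnAP-1* pair and 0.87 for the control pair, compared with 0.95 and 0.87 across other shared sites. Between groups it ran from 0.75 to 0.82 at isolated and from 0.81 to 0.85 at other shared sites. These are correlations across sites, which are not independent replicates, and the calling of every site in all 4 lists shapes them.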

How the data were processed

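The data were H3K27ac CUT&Tag peak lists of nonCMs at 7 dpa, 2 from control and 2 from *Epi/FB:dnAP-1* hearts, grouped by the sample labels. Per the submitters' processing notes and the methods, reads were trimmed with cutadapt 2.7, aligned to GRCz11 with Bowtie2 2.2.5 and filtered with SAMtools 1.9 and Picard. Coverage was scaled with ChIPseqSpikeFree factors and peaks were called per library. The methods name both MACS2 and SEACR, and the lists have the columns of SEACR. An IgG antibody is also named, but no IgG library was analysed here.

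The deposited values are signal, as total and maximum scaled coverage of a peak. The deposited difference between groups depends on the scaling, so log2 maxima were centred on the median of each list over the sites called in all 4 lists. Centring also removes any change common to these sites, so a genome-wide change in acetylation cannot be seen in the centred values. Where a list had several peaks at a site, the highest maximum was taken. Isolation was scored as described above, and a site with no neighbour on 1 side was not isolated. Group differences were fitted with limma 3.58.1 (lmFit and eBayes) over 17511 sites with Benjamini-Hochberg adjustment, and values per library were compared with two-sided exact permutation tests. No test was run over sites. The fit and the rule were tested on simulated data.

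The sites and the lists were chosen with earlier results of these data known. Sites named were the 5 with the longest shorter gap, the 5 highest and 3 lowest in level, the 5 largest differences in each direction with groups apart, the largest limma calls, and 3 on each side of the limit. Genes could be named only through a supplementary table of open chromatin regions, of which 1999 rows were read, and no isolated site overlapped one. Overlap was not counted for other shared sites, so its absence does not tell how open isolated sites are. Other limits, merging rules, scalings, signal measures and leaving out each library were tried. Python 3.11.15, numpy 2.4.6, scipy 1.17.1, pandas 2.3.3, matplotlib 3.10.9 and R 4.3.3 were used.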

Additional observations from a re-analysis of the deposited data

How the results depend on the processing

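The number of isolated sites, 318, was set by the rule: it was 1045 with a limit of 25 kb, 75 with 100 kb, 791 from the top 50% of each list, 193 where peaks of each list had to cover 50% of a site, 880 when only sites called in 2 or more lists counted as neighbours, 2491 when only sites called in all 4 did, and 392 to 526 with 1 list left out (526 without control replicate 1). The median width of isolated minus other shared sites, −1077.5 bp, was −960 bp at 25 kb, −755 bp at 100 kb, −1289 bp with peaks within 500 bp merged, and −615.5 bp for the widest peak of each list. The difference in percentile, −7.82 points, stayed between −8.84 and −6.12. The difference in centred log2 maximum, −0.16, was −0.083 at 25 kb, −0.29 at 100 kb and −0.30 with total signal, and turned to 0.10 with mean signal per base, a measure that divides by the covered length. The median group difference, −0.07, turned to 0.29 without centring and to 1.24 in steps, shrank to −0.0037 when centred on the median of all peaks of each list (exact permutation p = 0.667), −0.037 with total signal (p = 1) and −0.036 with mean signal per base (p = 0.667), and was −0.11 to −0.07 with 1 library left out. The 46 limma calls became 1 with total signal, 0 with mean signal per base (75 at an unadjusted p under 0.05; chosen after seeing the data), 20 among sites above the 25th percentile of mean maximum, where fewer sites were tested, and 0 to 64 with 1 library left out (0 without either *Epi/FB:dnAP-1* library, more without either control). Replicate numbers did not pair the libraries (deviations of same-numbered libraries correlated at 0.04). With the replicate number as a block, 59 isolated sites were called (18.6%, beside 15.2% of all). The median group difference cannot change with such a block, since each replicate number holds 1 library of each group. The difference in held-out calls, −2.94 points, was −1.52 at 25 kb (exact permutation p = 0.25), −3.62 at 100 kb (p = 0.375) and −0.19 when peaks had to cover 50% of a site (p = 1). The causes of these changes were not tested. Without read totals, low maxima of 7 to 12 steps have no known counting error.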
